A study of Mus musculus with 12 samples.

Results

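The AP-1 transcription factors of the Fos and Jun families were followed in the amygdala of female C57/BL6 mice. The 7 genes are Fos, Fosb, Fosl1, Fosl2, Jun, Junb and Jund. They were chosen by symbol and found through their Ensembl identifiers in GENCODE M21, as 7 of the 47729 genes with deposited counts, and all 7 passed the filter on low counts that left 26963 genes. The study sequenced the bilateral amygdala, a brain region that takes part in fear and anxiety. It came from 12 age-matched females of this inbred strain, 1 library per mouse, after behavior testing and rapid decapitation. The mice met an elevated plus maze at 9 weeks of age, a light/dark box at 10 weeks and a social test at 11 weeks. The time from the last test to decapitation is not given in the sources used here. According to the labels, 3 mice were less anxious (mice 3, 7 and 12), 4 were anxious (mice 1, 4, 8 and 11) and 4 were more anxious (mice 2, 6, 9 and 10), and mouse 5 had no group and stayed out of the comparisons. The study formed these states by dividing the mice along a principal component of the same RNA counts, so a test between the groups was not independent of how the groups were made. All mice shared strain, sex and sequencing run, all had been through the behavior tests, and the groups are parts of 1 cohort rather than separately bred or treated animals.

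AP-1 is a dimer of leucine zipper proteins. Jun proteins pair with each other or with Fos proteins, whereas Fos proteins need a Jun partner to bind DNA. In neurons, Fos, Fosb and Junb are classical immediate early genes, whose mRNA appears soon after synaptic activity and decays rapidly, and Fos mRNA is widely used to mark recently active cells. Jund is present in resting cells as well and varies less with activity, and a truncated protein from Fosb, ΔFosB, builds up in the brain after repeated stimulation. Counts per gene cannot tell that Fosb isoform from the full-length one.

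The stretch upstream of the start site is shown for the genes of this family whose RefSeq start lay within 30 bases of the GENCODE start, since factors driven by neuronal activity are known to bind cAMP response elements in such stretches. Each line holds the 110 bases before the RefSeq start site, 5′ to 3′ on the coding strand, from GRCm38, with matches to TGACNTCA, TGANTCA or TGACG on either strand in capitals. Fos lies at chr12:85473780-85473889 (plus strand), Fosb at chr7:19310046-19310155 (minus), Jun at chr4:95052223-95052332 (minus) and Junb at chr8:84978749-84978858 (minus).
Fos: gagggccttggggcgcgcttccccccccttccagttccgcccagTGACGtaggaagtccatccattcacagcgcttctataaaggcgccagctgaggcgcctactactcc
Fosb: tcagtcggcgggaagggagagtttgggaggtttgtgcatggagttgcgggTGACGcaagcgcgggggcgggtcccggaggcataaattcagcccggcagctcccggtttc
Jun: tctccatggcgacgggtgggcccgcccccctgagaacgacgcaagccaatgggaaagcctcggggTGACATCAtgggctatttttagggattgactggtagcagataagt
Junb: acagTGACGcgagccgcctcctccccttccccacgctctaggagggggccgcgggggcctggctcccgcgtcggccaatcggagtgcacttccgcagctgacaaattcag

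TGACG, the core that CREB and ATF proteins recognize, was found at -66 to -62 in Fos, at -60 to -56 in Fosb and at -106 to -102 in Junb, counted from the base before the start site as -1. Fos held it a further time at -129 to -125, outside the stretch printed. Over the 250 bases upstream, 3 of the 6 AP-1 promoters in RefSeq held it, against 17.7% of 32817 promoters of the same length. The 6 include Fosl2 and Jund, whose RefSeq starts differ from the GENCODE starts by 671 and -1210 bases. Their windows may therefore not be those of the counted transcripts. No promoter of Fosl1 was found in the source used. Jun instead held TGACATCA, a match to TGACNTCA, at -45 to -38, and 7.49% of all promoters held this pattern. The full palindrome of that element would count under both patterns. The AP-1 site TGANTCA itself was in 0 of the 6, against 6.75% of all promoters. A TATAAA box stood at -33 to -28 in Fos alone among them, against 12.4% of all promoters. Matches are letters in a window and say nothing of binding in these mice.

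Libraries held 31745630 to 45142355 counts per mouse in the 11 mice with a group (median 36578626). The AP-1 genes were covered by at least 49 counts in every one of them, from 49 to 101 for Fosl1 up to 1462 to 6476 for Jund. Levels below are CPM, counts scaled to the library total after adjustment with TMM factors. Markers of the basolateral and central amygdala summed to 159 to 312 CPM in less anxious, 121 to 193 in anxious and 110 to 232 in more anxious mice. Ppp1r1b was the most abundant of them, with a mean of 118 CPM and group means of 170, 75.4 and 122 CPM. Markers of striatal-type neurons summed to 46.8 to 163, 29.2 to 62.1 and 38.2 to 67.3 CPM in the same order of groups. Neuronal markers summed to 4354 to 4695 CPM in less anxious, 4458 to 5094 in anxious and 4538 to 5588 in more anxious mice. Of these 6 markers, 4 had a fitted change above 0 between the outer groups. Group means of Slc17a7, in that order, were 829, 969 and 1128 CPM, and those of Gad2 were 231, 202 and 182 CPM. The 4 astrocyte markers summed to 1014 to 1243 CPM in less anxious mice and 750 to 964 CPM in more anxious mice. Slc1a3, the most abundant of them, ran from 592 to 763 and from 439 to 504 CPM. Aqp4, Gja1 and Gfap overlapped between these groups. The 4 endothelial markers summed to 124 to 169 and 83.8 to 104 CPM. Of these, Slco1a4 ran from 43.9 to 46.6 and from 26.4 to 36.0 CPM, while Cldn5, Flt1 and Pecam1 overlapped. The groups were formed from these same counts, so some genes without overlap are to be found in either direction. Among the genes tested, 4.49% had every more anxious mouse above every less anxious mouse. The share with the reverse order, that of Slc1a3 and Slco1a4, is not given here. In such bulk tissue, fewer cells of a type and less RNA per cell cannot be told apart.

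To compare the 7 genes with each other, CPM were divided by the summed exon length of each gene. Jund was the most abundant, with 49.8 ± 19.0 CPM per kilobase (SD, n = 11), followed by Junb with 20.2 ± 7.88, Jun with 16.9 ± 4.18 and Fos with 10.7 ± 5.16. Fosl2 with 2.76 ± 0.853, Fosb with 1.81 ± 0.522 and Fosl1 with 1.03 ± 0.172 CPM per kilobase were the least abundant. Within mice this order was steady, since each gene exceeded the next in 10 or 11 of the 11 mice. Across mice the ranges of all neighbors in the order overlapped. The smallest step was from Junb to Jun, a ratio of 1.20 between the means. Jun, Junb and Jund together made up 83.9% ± 4.70 (SD, n = 11) of the summed level per kilobase, and Jund alone 47.9% ± 7.50.

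**Figure D1:**
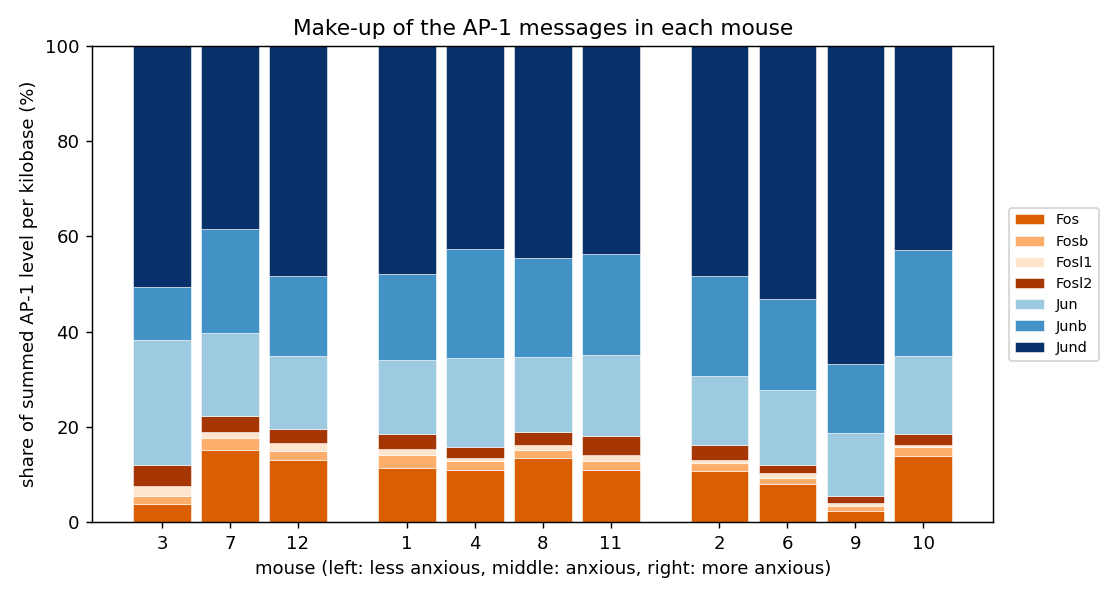
Share of each AP-1 gene in the summed AP-1 level per kilobase (y axis, %), 1 bar per mouse, ordered by predicted anxiety state. Jun-family genes (blue) took between 77.7% and 94.6% of every bar, and the Jund share was highest in mouse 9, at 66.7%.

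Jund, of the Jun family, was ordered by state. Its level was 40.6, 57.6 and 52.4 CPM in less anxious mice 3, 7 and 12. It was 57.8, 86.9, 84.2 and 69.7 CPM in anxious mice 1, 4, 8 and 11, and 116, 107, 147 and 93.4 CPM in more anxious mice 2, 6, 9 and 10. Every anxious mouse lay above every less anxious mouse, by a narrow margin at mice 7 and 1, and every more anxious mouse lay above every anxious mouse. Among the genes tested, 0.0779% were ordered in this way without overlap at either step, and Jund was the 1 gene of the 7 that was. Group means were 50.2 ± 8.68 (SD, n = 3), 74.7 ± 13.5 (SD, n = 4) and 116 ± 22.6 CPM (SD, n = 4), a ratio of 2.31 between the outer groups. These CPM were not adjusted for the GC content of the gene.

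Junb, an activity-induced partner of Fos and Fosb, spread more widely. The less anxious mice 3, 7 and 12 had 12.4, 44.7 and 25.2 CPM. The anxious mice 1, 4, 8 and 11 had 30.4, 65.0, 53.7 and 46.7 CPM, and the more anxious mice 2, 6, 9 and 10 had 69.3, 53.3, 44.1 and 67.5 CPM. The outer groups met at mouse 9, just under mouse 7, and mouse 3 lay far below all others. Means were 27.4 ± 16.2 (SD, n = 3), 48.9 ± 14.5 (SD, n = 4) and 58.6 ± 12.0 CPM (SD, n = 4).

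Jun, the founding member of its family and a substrate of the JNK kinases, was at 40.2, 50.0 and 32.0 CPM in less anxious mice 3, 7 and 12. It was at 36.0, 72.4, 57.4 and 52.0 CPM in anxious mice 1, 4, 8 and 11, and at 66.8, 60.5, 55.9 and 68.1 CPM in more anxious mice 2, 6, 9 and 10. All more anxious mice exceeded all less anxious mice, an order that 4.49% of the genes tested had, while the anxious mice spanned both outer groups. The means were 40.7 ± 8.99 (SD, n = 3), 54.4 ± 15.0 (SD, n = 4) and 62.8 ± 5.68 CPM (SD, n = 4).

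The Fos family showed no such order. Fos was at 4.28, 32.2 and 19.9 CPM in less anxious mice 3, 7 and 12. It was at 19.5, 31.5, 36.0 and 24.5 CPM in anxious mice 1, 4, 8 and 11, and at 36.3, 23.1, 7.09 and 42.9 CPM in more anxious mice 2, 6, 9 and 10. The lowest values were in a less anxious mouse and a more anxious mouse, and the 3 groups overlapped throughout. From mouse 3 to mouse 10 Fos varied 10.0-fold. Its coefficient of variation of 48.2% lay at percentile 96.7 among genes with a mean of at least 1 CPM, whose median was 14.3%.

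Fosb, which encodes FosB and ΔFosB, was at 5.11, 13.4 and 7.64 CPM in less anxious mice 3, 7 and 12. It was at 11.8, 14.6, 12.0 and 11.8 CPM in anxious mice 1, 4, 8 and 11, and at 15.1, 9.35, 8.61 and 14.9 CPM in more anxious mice 2, 6, 9 and 10. As for Fos, mouse 3 was lowest, mice 2 and 10 were at the top, and the groups overlapped.

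Fosl2 (Fra-2) and Fosl1 (Fra-1), which lack the strong activation domain of Fos, spread less than Fos. Fosl2 ran from 18.1 to 28.7 CPM in less anxious, 21.2 to 37.1 in anxious and 17.7 to 44.0 in more anxious mice. Fosl1 ran from 2.03 to 2.53, 1.76 to 2.57 and 1.36 to 2.25 CPM, and was the 1 gene of the family with a lower mean in more anxious mice (1.93 against 2.31 CPM). Both genes overlapped between all groups.

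**Figure D2:**
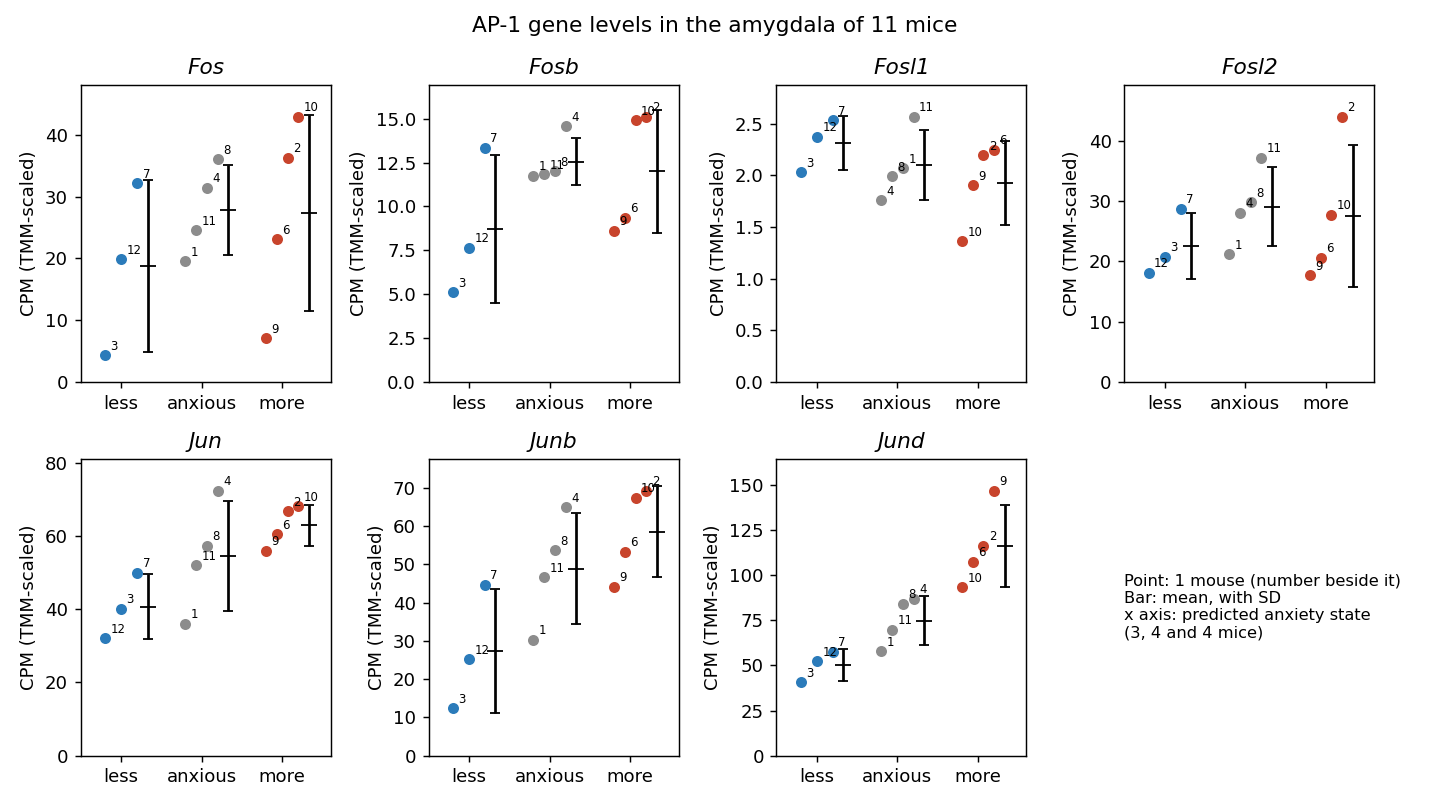
CPM of each AP-1 gene (y axes, starting at 0) in less anxious (blue), anxious (gray) and more anxious (red) mice; each point is 1 mouse with its number, and bars show the mean with SD. Jund separated the 3 groups, from 40.6 to 57.6, 57.8 to 86.9 and 93.4 to 147 CPM, whereas the Fos points of all groups overlapped.

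The question of the study was which amygdala genes vary with the predicted anxiety state. In a fit over all 11 mice with PC1 as a covariate, edgeR's quasi-likelihood test across the 3 states called none of the 7 AP-1 genes after Benjamini-Hochberg adjustment, where it called 0.00742% of all genes. At an unadjusted p under 0.05 it marked 3 of the 7, Jun, Junb and Jund, against 6.35% of all genes. Jund came closest, with an adjusted p of 0.0946 (edgeR, Benjamini-Hochberg), ahead of Junb at 0.692 and Jun at 0.731. With the order of the states as a number, Jund rose by 0.60 on the log2 scale per step (SE 0.08, edgeR adjusted p = 0.0198), as 1 of 22 called genes (0.0816% of those tested). DESeq2's likelihood ratio test, the tool of the study, called Jund (adjusted p = 6.94e-07) and Junb (adjusted p = 0.0369) among 0.533% of genes. Both stand in the gene list that the study picked from these same mice with that tool, so this is not independent evidence of their direction.

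Between more and less anxious mice, 6 of the 7 genes had a fitted change above 0, against 50.5% of all genes, and the median log2 fold change was 0.58, against 0.0036 over all genes tested. Jund was 1 of 12 called genes (0.0445%), with a log2 fold change of 1.18 (SE 0.17, edgeR adjusted p = 0.0389). At an unadjusted p under 0.05 were Jun, Junb and Jund, against 8.84% of genes. Junb had a log2 fold change of 1.10 (SE 0.31, edgeR adjusted p = 0.359) and Jun one of 0.58 (SE 0.19, edgeR adjusted p = 0.390), neither of which passed with edgeR. DESeq2's Wald test called Junb (adjusted p = 0.00681) and Jund (adjusted p = 2.11e-07) among 0.878% of genes. For the Fos family the changes were 0.58 for Fos (SE 0.64), 0.45 for Fosb (SE 0.27), 0.26 for Fosl2 (SE 0.32) and -0.28 for Fosl1 (SE 0.23), with edgeR adjusted p-values from 0.697 to 0.886. With 1 mouse left out, the change of Fos ran from 0.0052 (without mouse 10) to 0.865 and was 0.16 without mouse 3, and that of Fosb ran from 0.24 to 0.85. The change of Jun ran from 0.45 to 0.69.

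The call of Jund was near the threshold. It was lost when any 1 of mice 2, 3, 4, 7, 8, 11 and 12 was left out, with log2 fold changes from 0.96 to 1.27 over all mice left out in turn and edgeR adjusted p-values of up to 0.242. Libraries also differed in their slope on GC content. Jund is the most GC-rich of the 7 (67.1% in its transcript, against a median of 47.2% over genes). The slope of a library's log2 counts on gene GC, per 10 percentage points, was -0.19, 0.06 and -0.10 in less anxious mice 3, 7 and 12. It was -0.08, 0.03, 0.08 and -0.04 in anxious mice 1, 4, 8 and 11. In more anxious mice 2, 6, 9 and 10 it was 0.03, 0.09, 0.14 and -0.02. Mouse 3 had the lowest slope and the lowest Jund, and mouse 9 the highest slope and the highest Jund. With a GC offset in the fit, the log2 fold change of Jund was 0.71 (SE 0.12, edgeR adjusted p = 0.0959), that of Junb 0.85 and that of Jun 0.53, so the order of Junb and Jund turned. The part of the neuronal, astrocyte and endothelial markers in these differences was not tested.

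**Figure D3:**
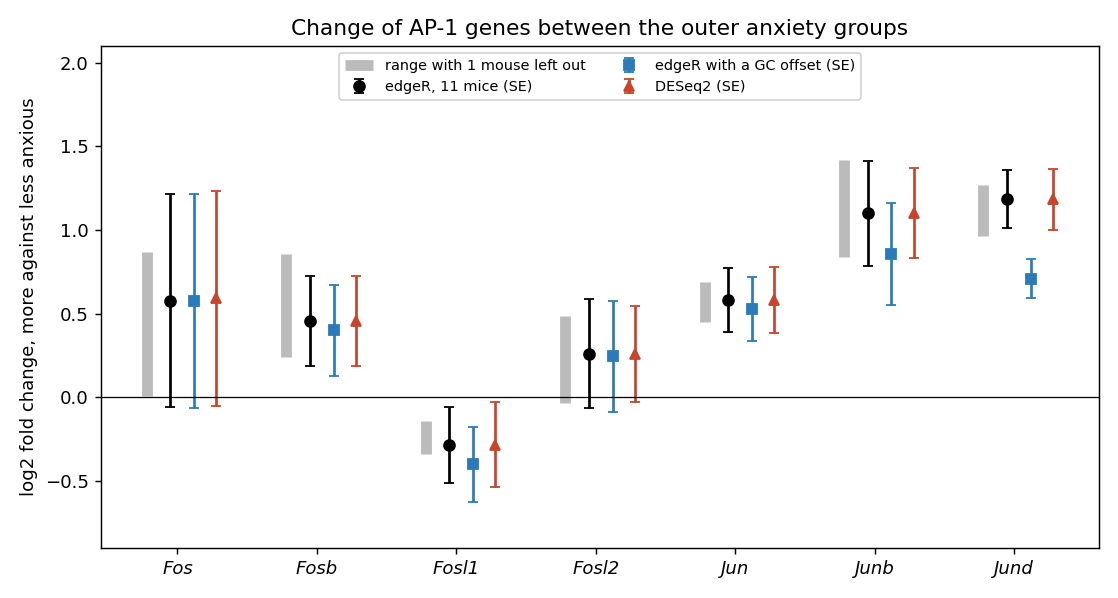
Fitted log2 fold change of more against less anxious mice (y axis) for each AP-1 gene; black points are edgeR with 11 mice, blue squares edgeR with a GC offset and red triangles DESeq2, all with SE, and gray bars are the range with 1 mouse left out. Jund moved from 1.18 to 0.71 with the GC offset, and the gray bar of Fosl2 crosses 0.

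The single steps were smaller, and they share mice with the outer comparison. From less anxious to anxious mice, Jund had a log2 fold change of 0.52 (SE 0.17), Junb one of 0.78 (SE 0.31) and Jun one of 0.35 (SE 0.19). From anxious to more anxious mice, they had 0.66 (SE 0.16), 0.32 (SE 0.28) and 0.23 (SE 0.17). Fosb had 0.50 (SE 0.27) at the first step and -0.04 (SE 0.25) at the second. edgeR called 0 of the 7 at either step (0.00371% and 0.0% of all genes). At an unadjusted p under 0.05 were 2 of the 7 (Junb and Jund) at the first step, against 4.74% of genes, and 1 of the 7 (Jund) at the second, against 4.57%. DESeq2 called 0 at the first step and Jund at the second, where it called 0.139% of genes.

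Levels of the family were also compared across mice without regard to state. Of 21 pairs, 7 had an adjusted permutation p under 0.05 (Pearson's r of log2 CPM, two-sided, Benjamini-Hochberg over the 21), and 16 had an r above 0. The points of a pair share their libraries, depth and GC slope. Groups of 3 or 4 mice were too small for values within a state. Fos and Fosb had r = 0.88 over 11 mice (permutation p = 0.00083, adjusted 0.0139; Spearman's rho 0.909, permutation p = 0.00027, adjusted 0.00329), and r = 0.776 without mice 3 and 9, which were farthest from the median of Fos. Jun and Junb had r = 0.825 (permutation p = 0.00199, adjusted 0.0139; rho 0.90, permutation p = 0.00047, adjusted 0.00329), and r = 0.899 without mice 1 and 12. Mouse 3, the lowest for Junb, was not among the mice left out of the second pair. Fos and Junb had r = 0.788 (permutation p = 0.00995, adjusted 0.0348), and 0.826 without mice 3 and 9. Fosb and Junb had r = 0.876 (permutation p = 0.00166, adjusted 0.0139; rho 0.891, permutation p = 0.00046, adjusted 0.00329), which was 0.506 without mice 3 and 12 and so rested in part on them.

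Fos and Jund, the genes at either end of the scale of induction, were not related in this way, with r = 0.255 (permutation p = 0.451, adjusted 0.557; rho 0.336, permutation p = 0.314, adjusted 0.412), and r = 0.563 without mice 3 and 9. The ratio of Jund to Fos per kilobase was 29.2 in more anxious mouse 9 and 13.4 in less anxious mouse 3. In the other 9 mice it lay between 2.52 and 6.56. Mouse 9 had the highest Jund and the next to lowest Fos, whereas mouse 3 had the lowest level of both. Jund did vary with the other Jun genes. With Junb it had r = 0.767 (permutation p = 0.00355, adjusted 0.0186), which was 0.494 without mice 3 and 12. With Jun it had r = 0.743 (permutation p = 0.00897, adjusted 0.0348), and 0.716 without mice 1 and 12. By Spearman's rho the adjusted permutation p was 0.0646 with Junb and 0.0434 with Jun. Fosl1 had r between -0.449 and 0.0972 against the other 6 genes. With 49 to 101 counts per mouse it had the fewest counts of the family, and the part of counting error in these values was not tested.

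**Figure D4:**
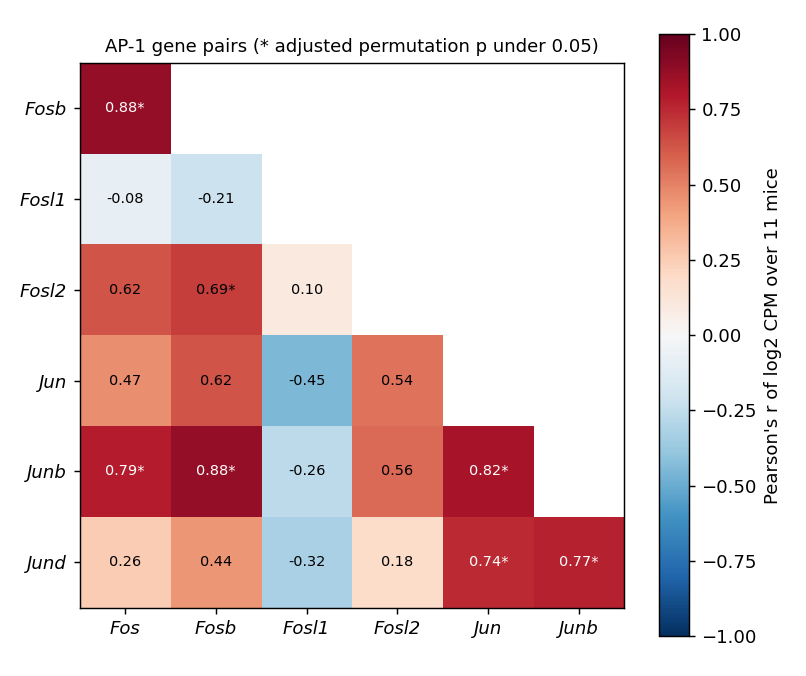
Pearson's r of log2 CPM over 11 mice for the 21 pairs of AP-1 genes (color scale from -1 to 1, value in each cell); an asterisk marks an adjusted permutation p under 0.05. The highest values were those of Fosb with Fos (0.88) and with Junb (0.876). Jund had 0.767 with Junb and 0.743 with Jun, which were 0.494 without mice 3 and 12 and 0.716 without mice 1 and 12. Fos and Jun had 0.465, which was 0.781 without mice 3 and 9. The Fosl1 cells stay between -0.45 and 0.10.

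The genes most like each member were sought among 13927 protein-coding genes with a mean of at least 1 CPM, by Pearson's r of log2 CPM over the 11 mice, given as a description. Fos was most like Sik1, a kinase gene induced by cAMP (r = 0.957), Arc, an immediate early gene of synapses (r = 0.951), and Zswim3 (r = 0.937). Fosb was most like Dusp1, a MAP kinase phosphatase of the immediate early class (r = 0.929), Trib1 (r = 0.926) and Poli (r = 0.924). Sik1, Arc, Dusp1 and Trib1 were all on the list of other immediate early genes described below. Junb was most like BC037034 (r = 0.959), Nfkbia, the inhibitor of NF-κB (r = 0.959), and Agpat1 (r = 0.956). Jun was most like Dyrk3 (r = 0.938), Cenpt (r = 0.937) and Cebpd (r = 0.931).

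The genes most like Jund were on none of the pathway lists, and Cacna1a stands in the gene list that the study picked from these mice. Pcsk1n, which encodes the neuroendocrine peptide precursor proSAAS, had r = 0.994, Cacna1a, a neuronal calcium channel gene, had r = 0.977, and H1fx, a linker histone gene, had r = 0.975. Their transcripts have GC contents of 57.3%, 58.4% and 71.3%, and those of the 3 genes most like Junb 58.2%, 52.9% and 59.0%. Fosl2 was most like Itga4 (r = 0.926), Coq8b (r = 0.915) and Foxo1 (r = 0.91). Fosl1, which had the fewest counts of the family, was most like Pold3 (r = 0.927), Catsperg1 (r = 0.891) and Plcg1 (r = 0.888).

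Other genes of the pathway were taken from fixed lists, and edgeR called 0 genes across the 3 states in any of them. Of 16 dimer partners of Fos and Jun, 10 had a change above 0 between more and less anxious mice, with a median log2 fold change of 0.11. Across the 3 states, 1 of the 16 had an unadjusted p under 0.05, near the 6.35% of all genes. It was Batf3, a partner of Jun in immune cells, at group means of 0.517, 0.640 and 0.994 CPM. DESeq2 called 0 of them. The 17 upstream regulators of Fos transcription, such as Srf, Elk1 and Creb1, had a median of -0.07, and 0 of them had an unadjusted p under 0.05 or a DESeq2 call. Of the 13 kinases that act on Fos and Jun proteins, 1 had an unadjusted p under 0.05 across the states, also near the 6.35% of all genes, Mapk3, the ERK1 gene, with group means of 218, 243 and 287 CPM, and DESeq2 called 0.

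Of 32 other immediate early genes, 25 had a change above 0, against 50.5% of all genes, with a median log2 fold change of 0.21. At an unadjusted p under 0.05 across the states were 2 of them, Egr4 and Gadd45g, about the 6.35% of all genes at such a p. Egr4, a zinc finger factor of the Egr family, had group means of 9.13, 15.9 and 20.9 CPM and a log2 fold change of 1.18 (SE 0.26, edgeR adjusted p = 0.174), which was 0.68 with the GC offset. It was also the 1 gene of the list that DESeq2 called, against 0.533% of all genes, and it stands in the gene list that the study picked from these mice. Gadd45g, a stress-responsive gene, had group means of 8.47, 13.7 and 13.3 CPM. Arc, by contrast, had 57.8, 67.9 and 65.9 CPM, and Npas4, a factor specific to neuronal activity, 18.4, 24.2 and 17.7 CPM.

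Of 20 genes known as AP-1 targets, 19 were tested, 6 had a change above 0 and the median was -0.08. None of the 19 had an unadjusted p under 0.05 or a call by edgeR or DESeq2. The opioid precursor Pdyn, which ΔFosB is known to regulate in the striatum, had group means of 54.1, 26.2 and 21.9 CPM with a log2 fold change of -1.32 (SE 0.57, edgeR unadjusted p = 0.101 across the states). Penk, another opioid precursor, had 404, 222 and 284 CPM. Both are abundant in striatal neurons, whose markers summed to 46.8 to 163 CPM in less anxious and 38.2 to 67.3 CPM in more anxious mice, and the part of such tissue in these values was not tested.

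The last comparison set the AP-1 genes against behavior, which does not rest on the RNA counts. The labels give 7 measures per mouse. They are the percent of time and of distance in the lit side of a light/dark box, the percent of time on the open arms and the total entries of an elevated plus maze, and the ratio of time spent close to a stranger mouse (box) to that at a distance (zone) after 3, 5 and 10 min. Lower values of the light and open arm measures are usually read as more anxiety. Each slope is the change in log2 level per SD of the measure over 11 mice, or 10 for the ratio at 3 min.

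Of the 49 slopes, 43 were below 0, against 50.9% of the slopes of all genes on the 7 measures. edgeR called 0 of the 49, with adjusted p-values from 0.639 to 0.9997, where it called 0.00796% of all slopes. At an unadjusted p under 0.05 was 1 of the 49, against 6.35% of all slopes, that of Fosl2 on distance in the light, at -0.26 (SE 0.10), a measure for which 5.8% of genes were at such a p. DESeq2 called 0 as well. The 7 genes and the 7 measures are not independent of each other, so the 43 are not separate results.

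For distance in the light, which was 16.6% in mouse 2 and 41.9% in mouse 6 at its extremes, slopes were -0.33 for Junb (SE 0.18), -0.31 for Fos (SE 0.29), -0.28 for Jund (SE 0.13), -0.24 for Fosb (SE 0.12), -0.19 for Jun (SE 0.09) and 0.05 for Fosl1 (SE 0.09). For the box:zone ratio at 10 min they were -0.43 for Fos (SE 0.32), -0.40 for Junb (SE 0.21), -0.26 for Fosb (SE 0.13) and -0.24 for Jund (SE 0.18). No gene was called for either measure, and the slopes of Fosb and Junb on that ratio were 0.0026 and 0.0045 without mouse 3, which had the highest ratio, 2.62. Jund and Jun had slopes of 0.19 (SE 0.18) and 0.05 (SE 0.11) on the ratio at 3 min, which with 4 slopes of Fosl1 were the 6 that were not below 0.

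On the light measures, a call of Jund depended on leaving out mouse 6. Mouse 6, labelled more anxious, spent 46.6% of its time in the light, the most of all 11 mice, and had 107 CPM of Jund. Without it, the slope of Jund was -0.51 (SE 0.07, edgeR adjusted p = 0.0157) on time in the light and -0.52 (SE 0.07, edgeR adjusted p = 0.02495) on distance in the light, where 0.06% and 0.0525% of genes were called. With it, they were -0.16 (SE 0.14) and -0.28 (SE 0.13). They were -0.09 (SE 0.17) and -0.17 (SE 0.18) with mouse 5 included, and -0.12 (SE 0.08) and -0.18 (SE 0.07) with the GC offset, and edgeR called neither slope in these fits. Junb and Jun had slopes of -0.58 (SE 0.17) and -0.32 (SE 0.08) on distance without mouse 6, with edgeR adjusted p-values of 0.255 and 0.178. Each of the 11 mice was left out in turn, and leaving out any other mouse gave no such call. No fit without mouse 6 also had the GC offset. On the second principal component as recomputed here, mouse 6 scored 0.28, within the anxious mice (-4.40 to 7.59). The other more anxious mice scored from -25.2 to -12.8.

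**Figure D5:**
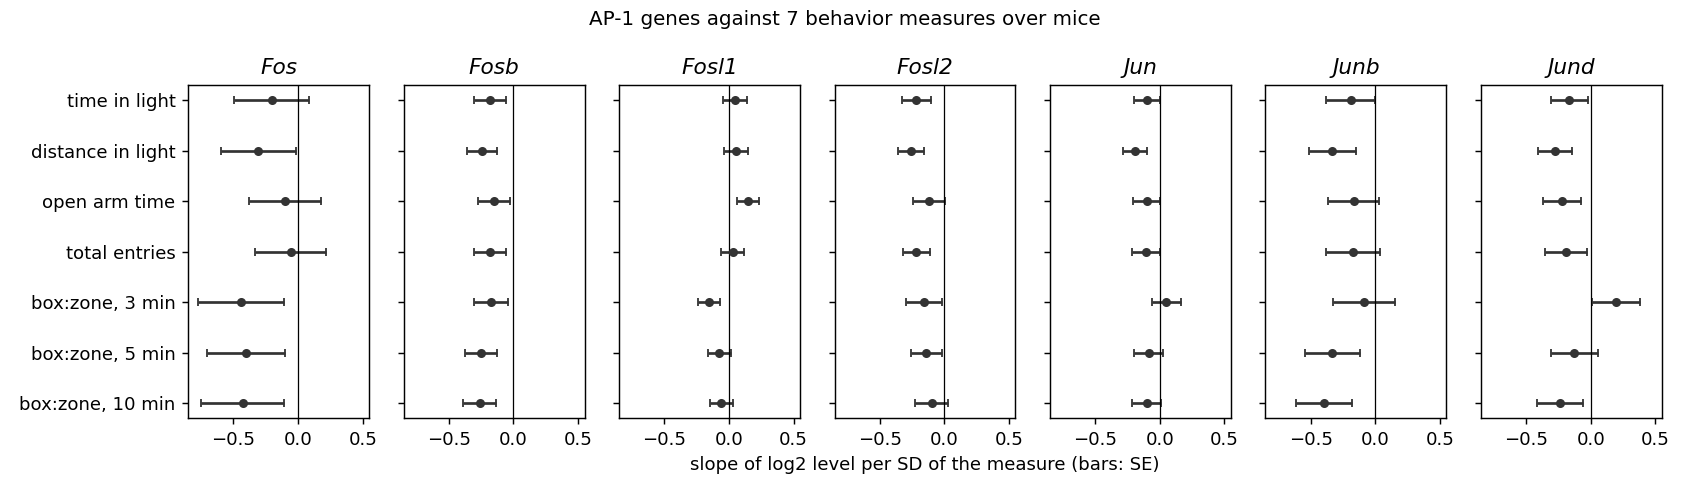
Slope of each AP-1 gene (x axes, log2 level per SD of the measure, bars SE) on the 7 behavior measures (rows) over 11 mice, or 10 for the ratio at 3 min. Most points, 43 of 49, lie left of 0, and none was called.

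Several of the genes overlap another gene, and how the counting split reads between them was not tested. Fosl1 (chr19:5447547-5455946, plus strand) overlaps Ccdc85b on the other strand, which had group means of 12.5, 20.3 and 30.5 CPM and a log2 fold change of 1.28 (SE 0.28, edgeR adjusted p = 0.200), against -0.28 for Fosl1. Junb (chr8:84974484-84978718, minus strand) overlaps Prdx2, at 193, 200 and 195 CPM, and Jun (chr4:95049034-95052222, minus strand) overlaps Junos, at 0.850, 0.872 and 0.783 CPM. The antisense gene at Jund (chr8:70698949-70700616, plus strand), Gm11175, had 0 counts in every mouse, which allows up to 3 counts per library, for counting error only. The library kit kept strand, but whether the counting used it is not given in the sources used here.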

How the data were processed

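Bilateral amygdala mRNA of 12 mice was sequenced on 1 run with single-end reads of 75 bp from a stranded mRNA kit. The authors trimmed reads where needed, used a STAR alignment to mm10 for quality checks, quantified transcripts with Salmon and collapsed them to genes. The deposited values are estimated counts (expected counts), unnormalized and whole, for 47729 genes. The annotation release, versions and strand setting of the counting are not given in the sources used here. Names, coordinates, exon lengths and GC content came from GENCODE M21 (GRCm38), which matched 47310 identifiers (99.1%), and promoters from RefSeq (GRCm38).

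The 26963 genes that reached 10 reads, summed over the 11 mice with a group, were fitted with edgeR 4.0.16 (TMM, robust quasi-likelihood F-test, PC1 of variance-stabilized counts as covariate, Benjamini-Hochberg over all genes, threshold 0.05) in R 4.3.3, with the 3 groups sharing 1 estimate of the spread. Slopes on the 7 behavior measures had no covariate. DESeq2 1.42.0 served as alternative and for the transform. Each library came from 1 mouse. Limits on counts of 0 cover counting error only. Log2 CPM had a prior count of 2, and correlations were tested with 100000 permutations, two-sided (scipy 1.17.1, Python 3.11.15, numpy 2.4.6, pandas 2.3.3, matplotlib 3.10.9). The group fit was run on simulated counts with 200 changed genes and with none changed, and the slope fit was checked only with none changed. Every simulated gene had the same spread, so these runs do not show how the fits fare for genes as variable as Fos.

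Named genes were all 7 AP-1 genes, up to 4 genes per list with the smallest p across the groups, and the 3 genes most like each AP-1 gene. Arc and Npas4 in the list of immediate early genes, the regulators Srf, Elk1 and Creb1, and the genes that overlap an AP-1 gene were named outside this rule, the last after their values were seen. The members and lists were chosen with earlier results of these data known. Alternatives were other size factors, count filters, covariates, robust options and tests, a GC offset, ranks of the measures, mouse 5 included and each mouse left out.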

Additional observations from a re-analysis of the deposited data

Results flagged for a closer look

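The level of Fosb in anxious mouse 4 was 14.56 CPM and stood apart from the other 3 anxious mice, at 11.8 to 12.0 CPM, by more than Dixon's 95% limit for 4 samples. It was 1 of 14 groups of 4 mice tested over the 7 genes, and chance marks about 1 in 20.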

How the results depend on the processing

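Calls of the 7 AP-1 genes depended on the tool and the fit. Across the 3 states edgeR called 0, the order of the states as a number called 1 (Jund) and DESeq2 called 2 (Junb and Jund). Between more and less anxious mice edgeR called 1 (Jund). It called 0 with a mean of at least 1 CPM, with no covariate, without the robust option and with the GC offset, at adjusted p-values of 0.0557, 0.0545, 0.0656 and 0.0959, and between 0 and 1 with each mouse left out, while DESeq2 called 2. Between more anxious and anxious mice DESeq2 called 1 against 0. With each mouse left out, members called were 0 to 1 for time in the light and 0 to 1 for distance in the light, the 1 being Jund without mouse 6. The fitted change of Fosl2 between the outer groups was -0.0374 to 0.4857 on the log2 scale with each mouse left out, below 0 without mouse 2. The slopes on the box:zone ratio at 10 min were -0.3284 to 0.0026 for Fosb and -0.5051 to 0.0045 for Junb, above 0 without mouse 3. Per kilobase of the longest transcript, Fosb was at 2.99 and Fosl2 at 4.08 CPM per kilobase, with the order of the 7 genes as before. Causes were not tested. Size factors of DESeq2 and the absence of a count filter changed no count of calls, and the count was 0 under every alternative for anxious against less anxious mice and for the other 5 measures. With 3 or 4 mice per state, the change of Fos between the outer groups lay within its error. No paired analysis was possible because each mouse belongs to 1 group and the mouse numbers are not shared between groups.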

Other observations

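Mouse 5, which the labels put in no group and which the study set aside as an outlier in a PCA of its expression values, had 33.2 CPM of Fos, 11.5 of Fosb, 1.004 of Fosl1, 32.2 of Fosl2, 49.2 of Jun, 29.7 of Junb and 32.9 of Jund. Its Jund and Fosl1 levels lay below the lowest of the other 11 mice, 40.6 and 1.36 CPM, and its other AP-1 genes lay within their ranges. It spent 12.05% of its time in the light, less than any of the other mice, whose lowest value was 12.4% in mouse 9, the mouse with the highest Jund.

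In the 2 markers of pituitary hormones, Prl and Gh, some mice were listed at 0 counts, which allows up to 3 counts per library. The 3 pituitary markers summed to 1.88 to 55.7 CPM in anxious mice, 2.08 to 3.62 in less anxious and 1.11 to 1.63 in more anxious mice. The 5 choroid plexus markers summed to 15.7 to 23.7 CPM in less anxious, 11.9 to 14.2 in anxious and 9.38 to 17.0 in more anxious mice. Microglial markers summed to 181 to 219, 166 to 202 and 154 to 191 CPM, and oligodendrocyte markers to 2095 to 2738, 1294 to 2483 and 1655 to 2296 CPM. Their part in the AP-1 values was not tested.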
